A study of Mus musculus with 4 samples.

Results

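The SOX transcription factors are described here across L929 and NIH3T3, 2 mouse fibroblast lines measured on Affymetrix whole-genome mouse arrays. The genes are Sox2, Sox4, Sox5, Sox6, Sox7, Sox9, Sox11, Sox12, Sox17 and Sox18, 10 of the 18193 genes named by a probe set of their own. All 37 probe sets that the platform annotation assigns to these symbols alone were taken, of 45037 on the array outside the controls. The genes were proposed with results of the same contrast in view, so their levels are given as a description. They were part of the fit over all probe sets, but its calls on them are only counted, with no p-value printed, and support nothing. L929 is a clonal line from connective tissue of an adult C3H mouse, and NIH3T3 is a line established from mouse embryo fibroblasts. Both lines were unstimulated, no agent or genetic change is named in the labels for either, and each has 2 arrays of total RNA. The submitters chose L929 as prone to necrosis and NIH3T3 as prone to apoptosis, and 1 line stands for each. The labels do not say whether replicates were separate cultures, so their spread may be technical.

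SOX proteins bind the minor groove of DNA through an HMG domain, bend it, and act with partner factors on shared enhancers. The family is split by sequence into groups: SoxB1 (Sox2) holds stem and neural progenitor factors, SoxC (Sox4, Sox11, Sox12) acts in neural, mesenchymal and lymphoid progenitors, and SoxD (Sox5, Sox6) lacks a transactivation domain of its own. SoxE (Sox9) directs cartilage, gonad and neural crest fates, and SoxF (Sox7, Sox17, Sox18) acts in endothelium and endoderm. In mesenchymal cells, Sox9 with Sox5 and Sox6 is best known for driving cartilage matrix genes, and Sox4 for its induction by TGF-beta.

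Signals are MAS5 intensities without a physical unit, brought to 1 trimmed mean on every array, and are given as mean ± SD over n = 2 arrays per line. Differences between lines are taken within a probe set. Signals of different probe sets are set together only to call them bright or dim, in marker sums and in the search for nearest genes. In such bulk RNA, fewer expressing cells and less RNA per cell cannot be told apart. Log2 differences are L929 minus NIH3T3 of log2(signal + 8.01), a scale that understates differences of dim probe sets. Folds are 2 raised to the size of this difference, so they can fall below the ratio of the printed means. Folds given as "at least" are bounds from signals without the added 8.01, so the 2 kinds of fold are not on 1 scale. The filter level, 17.3, is the signal that 40% of all values fall under, not a measured detection limit. Tested probe sets are those with L929, NIH3T3 or both above it on 2 of 2 arrays. Pearson's r between replicates was 0.982 for L929 and 0.981 for NIH3T3, and 0.835 to 0.843 between the lines, over tested probe sets, which are not independent. NIH3T3 replicate 2 was brighter as deposited, with a trimmed mean of 210.3 against 135 to 142 on the other 3 arrays. Of the fibroblast markers, 8 of 10 lay above the filter level on both L929 arrays and 10 of 10 on both NIH3T3 arrays, with Vim, Col1a1 and Col1a2 high in both lines. Thy1, Dcn and Lum, which also mark fibroblasts, lay at 2.78 to 30.0 in L929 and at 548 to 2253 in NIH3T3.

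The family split into a few genes with clear signal in NIH3T3 and a majority near or below the filter level in both lines. Sox4, Sox9 and Sox12 were bright in NIH3T3 and lower in L929, Sox5 was dim and lower in L929, and Sox17 was dim, with a difference that did not meet the rule below. The other 5 genes, Sox2, Sox6, Sox7, Sox11 and Sox18, had no probe set above the filter level on both arrays of either line. Of the 37 probe sets 12 passed the filter, and 11 of these were lower in L929 by limma at an adjusted p under 0.05 and a fold over 1.5, while 0 were higher. Over all 27438 tested probe sets, 16.7% were lower and 14.9% higher by the same rule, 31.6% in either direction. Because the contrast chose the genes, nothing is read from this count. The filter also shaped it: 8 of the 12 passed through NIH3T3 alone, so at least 1 L929 array had to lie below both NIH3T3 arrays. Another 3 passed in both lines and 1 through L929 alone. The median log2 difference was -3.00 over these 12 and -0.01 over all tested probe sets.

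**Figure D1:**
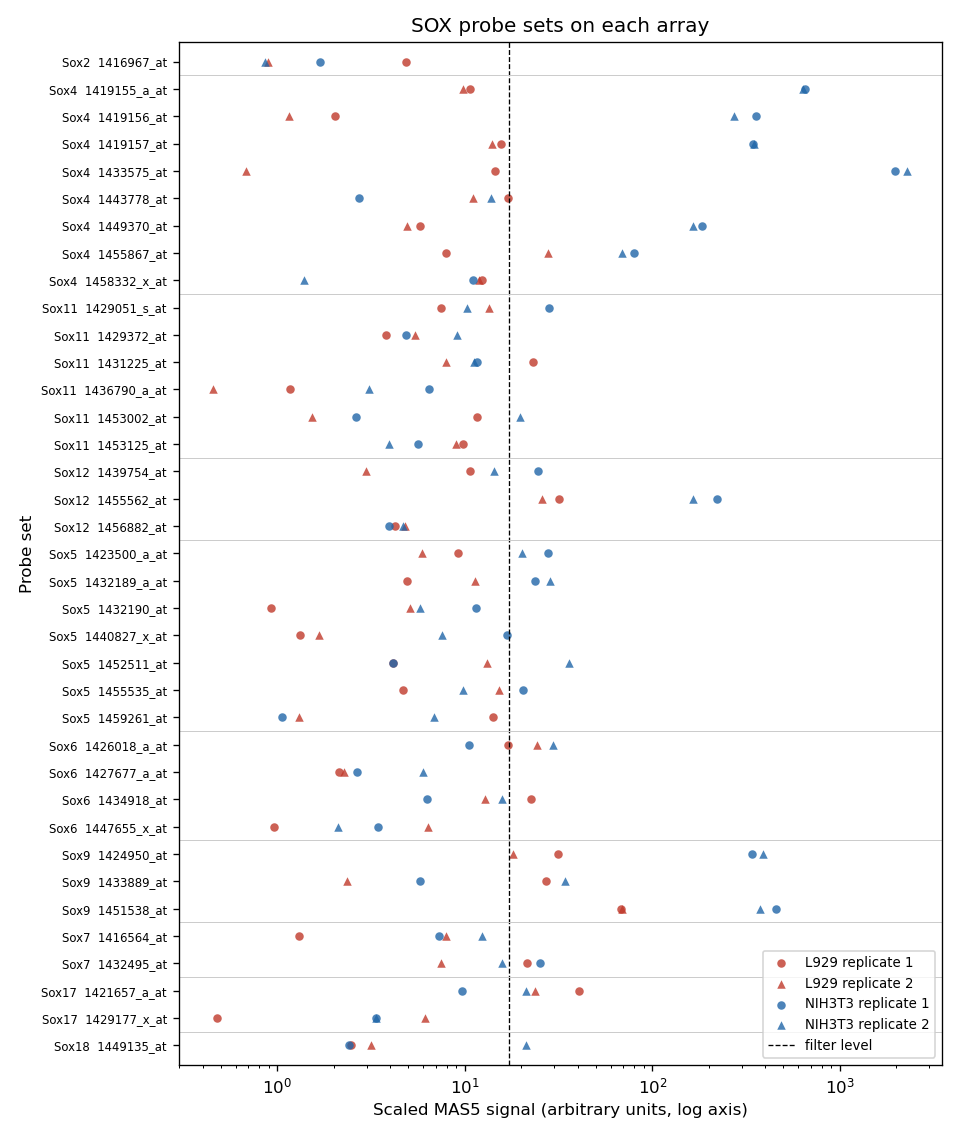
Scaled MAS5 signal (log axis) of each of the 37 SOX probe sets on each array, with L929 in red, NIH3T3 in blue, replicate 1 as circles and replicate 2 as triangles; the dashed line is the filter level of 17.3. NIH3T3 arrays stand clearly to the right of L929 for 6 of 8 Sox4, 2 of 3 Sox9 and 1 of 3 Sox12 probe sets. Among these, Sox4 1455867_at has the narrowest gap. Sox2, Sox6, Sox7, Sox11 and Sox18 lie around or below the dashed line in both.

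Sox4 differed most. It encodes a SoxC activator that favours survival and mesenchymal change in many cell types. Its probe set 1433575_at measured 14.4 and 0.678 in L929 and 1971 and 2287 in NIH3T3. Both L929 arrays lay below the filter level and both NIH3T3 arrays above it, so the lines could not overlap. On this probe set, though not on the others, the L929 signal was thus at least 123-fold lower (log2 difference -7.25, SE 0.37). That bound is counted from the NIH3T3 mean of 2129 ± 223 down to the filter level.

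Next came 4 Sox4 probe sets that were designed from 1 shared source sequence, so they are not independent readings, and all had the same direction. Of these, 1419155_a_at measured 10.7 and 9.77 in L929 against 653 and 636 in NIH3T3, at least 37.4-fold lower. Likewise 1419156_at measured 2.03 and 1.15 against 355 and 272, at least 18.0-fold lower. Both L929 arrays were below the filter level and both NIH3T3 arrays far above it in each case. The 1419157_at signals were 15.6 and 14.0 against 345 and 348, at least 20.1-fold lower. Those of 1449370_at were 5.74 and 4.89 against 185 and 165, at least 10.1-fold lower.

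The remaining Sox4 probe sets were dimmer and less uniform. For 1455867_at the L929 arrays read 7.91 and 27.8 and the NIH3T3 arrays 79.4 and 68.8, with a log2 difference of -1.78 (SE 0.39). Replicate 2 of L929, but not replicate 1, exceeded the filter level. The lines did not overlap there either, but the fit no longer passed its threshold without NIH3T3 replicate 1, at -1.69. The last pair, 1443778_at and 1458332_x_at, come from another shared source sequence and read 1.38 to 16.9 on all arrays, below the filter level in both lines. The 6 probe sets that passed the filter therefore spanned -7.25 to -1.78 for 1 gene, and the 2 that did not pass lay below the level in NIH3T3, where the others lay above it.

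Sox12 is the third SoxC gene and a weaker activator than its paralogues. Its probe set 1455562_at measured 31.7 and 25.9 in L929 and 220.5 and 164 in NIH3T3, 5.40-fold lower in L929 (28.8 ± 4.10 against 192 ± 40.3, log2 difference -2.43, SE 0.22). All 4 arrays were above the filter level and the lines did not overlap. The other Sox12 probe sets were dim, with 10.6 and 2.97 against 24.4 and 14.3 for 1439754_at and 3.93 to 4.78 on all arrays for 1456882_at. Sox11, which often acts together with Sox4, read 0.455 to 28.1 over its 6 probe sets, and 3 of 24 values exceeded the filter level. The highest Sox11 value came from 1429051_s_at on NIH3T3 replicate 1, at 28.1 against 10.3 on replicate 2, and its L929 arrays read 7.46 and 13.5. No Sox11 probe set was above the filter level on both arrays of a line. Thus within SoxC, Sox4 and Sox12 had signal in NIH3T3 and Sox11 had none that both arrays shared.

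The promoters of the 3 SoxC genes are shown because both NIH3T3 arrays lay above the filter level for Sox4 and Sox12 and for no Sox11 probe set. Each window is the 250 bases before the start of the gene in RefSeq, build GRCm38.p6, minus strand, written 5′ to 3′. Capitals mark CCAAT on the printed strand or ATTGG, its reverse complement. Sox4 lies at chr13:28953700-28953949, Sox12 at chr2:152398047-152398296 and Sox11 at chr12:27342719-27342968.
Sox4: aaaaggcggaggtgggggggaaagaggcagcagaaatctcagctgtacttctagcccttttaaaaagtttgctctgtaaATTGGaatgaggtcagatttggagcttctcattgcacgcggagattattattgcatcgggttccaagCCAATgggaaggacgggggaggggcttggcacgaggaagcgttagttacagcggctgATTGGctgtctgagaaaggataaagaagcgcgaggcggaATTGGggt
Sox12: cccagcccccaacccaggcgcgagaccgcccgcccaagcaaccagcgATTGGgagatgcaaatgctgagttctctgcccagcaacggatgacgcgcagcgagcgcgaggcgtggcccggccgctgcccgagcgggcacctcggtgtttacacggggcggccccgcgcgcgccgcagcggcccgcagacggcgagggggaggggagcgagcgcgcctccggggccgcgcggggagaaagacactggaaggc
Sox11: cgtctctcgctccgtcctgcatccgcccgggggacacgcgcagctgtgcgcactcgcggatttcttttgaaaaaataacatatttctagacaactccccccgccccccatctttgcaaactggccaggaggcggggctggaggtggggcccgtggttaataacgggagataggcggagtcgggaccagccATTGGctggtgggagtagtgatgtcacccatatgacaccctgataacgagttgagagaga
The Sox4 window held 4 such matches, 1 on the printed strand and 3 on the other, and the Sox12 and Sox11 windows held 1 each. Among all 32851 promoter windows of this length, 33.8% held at least 1 match and 0.840% held 4 or more. The cut of 4 equals the Sox4 count, so its share is a description only. A link between matches and signal was not tested. The GC box GGGCGG, counted on both strands, occurred 0 times in the Sox4 window, 3 times in Sox12 and 2 times in Sox11, and in 32.7% of all windows. The SOX core motif ACAAT, counted on both strands, was found in none of these 3 windows and in 27.7% of all windows. CpG dinucleotides numbered 11 in Sox4, 35 in Sox12 and 17 in Sox11, against a median of 6 over all windows. Matches are letters only, and no factor's binding was measured. RefSeq windows matched 6 of the 10 genes; Sox7, Sox9, Sox17 and Sox18 were not matched.

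Sox9, the SoxE gene that commits mesenchyme to cartilage, was lower in L929. It read above the filter level on all arrays for 2 of 3 probe sets. Its probe set 1451538_at measured 68.1 and 69.1 in L929 and 458 and 374 in NIH3T3, 5.51-fold lower in L929 (68.6 ± 0.777 against 416 ± 59.6, log2 difference -2.46, SE 0.15). All 4 arrays were above the filter level and the lines did not overlap. From the same source sequence, 1424950_at measured 31.3 and 18.0 against 341 and 391, 11.7-fold lower (log2 difference -3.55, SE 0.23). The third, 1433889_at, read 27.2 and 2.35 in L929 and 5.75 and 34.2 in NIH3T3. There the replicates differed more than the lines, and the probe set did not pass the filter.

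The SoxD genes lay near or below the filter level. Sox5, a partner of Sox9 on cartilage enhancers, had 2 of 7 probe sets that passed the filter, both through NIH3T3. Signals of 1432189_a_at were 4.89 and 11.3 in L929 and 23.6 and 28.3 in NIH3T3, at least 1.50-fold lower (log2 difference -1.10, SE 0.33). Signals of 1423500_a_at were 9.14 and 5.89 against 27.8 and 20.1, at least 1.37-fold lower (log2 difference -1.04, SE 0.31). Both L929 arrays lay below the filter level and both NIH3T3 arrays above it in either, so the lines could not overlap. The NIH3T3 means lay just above that level, at 25.9 ± 3.36 and 24.0 ± 5.48. Neither passed the fit's threshold without L929 replicate 1 (-0.81 for 1432189_a_at and -1.19 for 1423500_a_at), without NIH3T3 replicate 1 (-1.20 and -0.86) or without NIH3T3 replicate 2 (-1.002 and -1.215). Without L929 replicate 2, 1432189_a_at passed and 1423500_a_at did not (-0.89). The other 5 Sox5 probe sets read 0.928 to 35.9, the highest of these on NIH3T3 replicate 2 alone.

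Sox6, the other SoxD factor of cartilage and also of erythroid and muscle cells, read 0.956 to 29.3 over 4 probe sets. Its brightest values came from 1426018_a_at, at 17.0 and 24.3 in L929 and 10.6 and 29.3 in NIH3T3, and the lines overlapped. Sox2, the SoxB1 factor of pluripotent and neural stem cells, has 1 probe set, which measured 4.87 and 0.887 in L929 and 1.69 and 0.859 in NIH3T3. All 4 Sox2 values lay below the filter level.

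The SoxF genes, regulators of endothelial and lymphatic fate, were dim and variable. Sox17 had the only probe set of the 10 genes that passed the filter through L929 alone: 1421657_a_at measured 40.4 and 23.8 in L929 and 9.64 and 21.0 in NIH3T3. The lines did not overlap, but the gap between L929 replicate 2 and NIH3T3 replicate 2 was small beside the spread within each line. The means were 32.1 ± 11.7 and 15.3 ± 8.07, with a log2 difference of 0.79 (SE 0.36), and NIH3T3 replicate 2 alone of that line exceeded the filter level. It was the 1 tested SOX probe set that did not meet the rule. The other Sox17 probe set read 0.477 to 6.10. Sox7 read 1.30 to 12.3 on 1416564_at, while 1432495_at measured 21.5 and 7.49 in L929 and 25.002 and 15.8 in NIH3T3, with replicate 1 of each line above the filter level. Sox18 measured 2.48 and 3.14 in L929 and 2.41 and 21.1 in NIH3T3, so that only NIH3T3 replicate 2 exceeded the filter level.

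**Figure D2:**
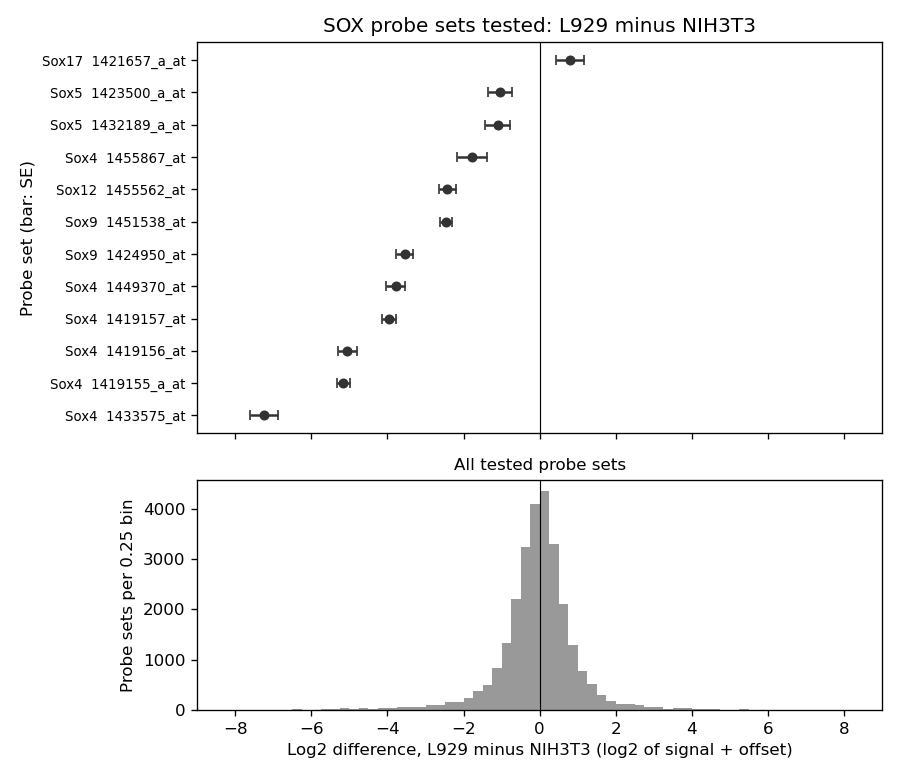
Log2 difference, L929 minus NIH3T3, of the 12 SOX probe sets that passed the filter (points, with SE bars from limma), above a histogram of all 27438 tested probe sets. Sox4 reaches -7.25, far in the left tail, and Sox17 alone lies right of 0, at 0.79.

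The remaining SOX genes of the array were mostly near or below the filter level. Of these 10 genes, with 16 probe sets, 4 had a tested probe set. Sox21, a SoxB2 factor that counteracts SoxB1, measured 154 and 77.6 in L929 and 227 and 262 in NIH3T3, 2.14-fold lower in L929 (116 ± 54.1 against 245 ± 24.7; limma adjusted p = 0.0119 over all tested probe sets). The difference no longer passed without NIH3T3 replicate 2 (log2 difference -0.997, adjusted p = 0.0795), and the second Sox21 probe set read 1.61 to 3.57. Sox3, a SoxB1 paralogue of Sox2, stood at 0.21 on the log2 scale (adjusted p = 0.594). Sox10, the glial and pigment cell SoxE factor, stood at -0.16 (adjusted p = 0.683), and Sox13, the third SoxD gene, at -0.39 (adjusted p = 0.624). A second tested Sox10 probe set stood at -0.87 and was not called. Its arrays read 4.35 and 59.2 in L929 and 43.9 and 45.0 in NIH3T3. Sox13 read 2.90 and 35.7 on the L929 arrays, and without L929 replicate 2 it passed at -1.39. Sox1, Sox8, Sox14, Sox15, Sox30 and Sry were not tested, and their values reached at most 40.5, on 1 array. At 1 probe set per gene, 17.5% of the 12676 genes tested were lower and 17.1% higher in L929, 34.6% in all, with a median of 0.01.

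Genes known as SOX targets, in lists by group, were read with the same fit. The lists here and below were chosen with earlier results of these data known. Their adjusted p-values therefore describe the fit and support no claim about a list. For SoxC, 2 of 5 tested target genes were lower in L929 and 0 higher, with a list median of -0.71. Over all genes tested, 17.5% were lower and 17.1% higher. Tubb3, a neuronal beta-tubulin, measured 2.02 and 2.88 in L929 and 47.9 and 22.0 in NIH3T3, at least 1.88-fold lower (limma adjusted p = 0.00323). Dicer1, the microRNA-processing nuclease, was 1.67-fold lower, at 126 ± 15.6 against 215 ± 8.69 (adjusted p = 0.00459). Tead2, a Hippo pathway factor, stood at -0.29, Ezh2, the Polycomb methyltransferase, at 0.23, and Gdf5, a joint growth factor, at -0.71, none of them called. Gdf5 was called lower without NIH3T3 replicate 1 (-1.11). Dcx was too dim to be tested.

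Cartilage genes that Sox9, Sox5 and Sox6 are known to drive were mostly too dim to be tested. Of 15 genes 10 were not tested, among them Col2a1, Hapln1 and Matn1, and no value of these 10 exceeded 25.7. Of the 5 tested, 1 was called, higher in L929, against 34.6% of all genes tested called in either direction. Its relation to Sox9 was not tested. Col9a1, a chain of cartilage collagen, measured 134 and 139 in L929 and 14.5 and 21.9 in NIH3T3. That is 5.57-fold higher (limma adjusted p = 1.0e-04), and NIH3T3 replicate 2 but not 1 exceeded the filter level. Its second tested probe set differed by 1.42, in the same direction. Acan, or aggrecan, stood at -0.39, Comp at 0.07, Snorc at -0.59 and Matn4 at -0.81 on the log2 scale, none of them called, and the list median was -0.39. Matn4 was called lower without L929 replicate 2 (-1.57).

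Among pluripotency and neural progenitor genes linked to Sox2, 2 of 9 tested were lower and 1 higher in L929, with a median of 0.14. The shares over all genes tested were 17.5% lower and 17.1% higher. Klf4, a reprogramming factor that is also expressed in fibroblasts, measured 160 and 171 in L929 and 785 and 794 in NIH3T3, 4.60-fold lower (limma adjusted p = 1.8e-06). Klf2, a related zinc finger factor, measured 38.0 and 30.8 against 204 and 197, 4.93-fold lower (adjusted p = 3.9e-05). Lefty1, a Nodal antagonist, measured 198 and 133 against 6.02 and 18.9, higher in L929 by 3.13 on the log2 scale (adjusted p = 2.1e-04). The NIH3T3 mean lay below the filter level, so no fold is given, and the difference ran from 3.79 with an offset of 1 to 2.15 with an offset of 32. Lefty1 has a close paralogue, and the probe set may not tell them apart. Dppa4, at 0.90, was called higher without NIH3T3 replicate 1 (1.21). Pou5f1, Nanog, Zfp42, Sall4 and Lin28a, like Sox2, were not tested, with no value above 29.1.

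Vascular genes linked to the SoxF group gave 2 lower and 0 higher of 9 tested, with a median of -0.16. Beside them, 17.5% of all genes tested were lower and 17.1% higher. Vcam1, an adhesion receptor, measured 226 and 204 in L929 and 418 and 489 in NIH3T3, 2.06-fold lower (limma adjusted p = 3.0e-04). Mef2c, a MADS-box factor, measured 2.44 and 11.2 against 40.7 and 45.3, at least 2.49-fold lower (adjusted p = 0.00389), and its 3 tested probe sets ranged from -1.85 to -0.42. The endothelial genes Cdh5, Cldn5, Tek, Prox1 and Rasip1 were not tested. Without NIH3T3 replicate 2, Flt1 (1.38) and Nrp2 (0.65) were called higher and Cldn5 lower (-1.77). Without NIH3T3 replicate 1 or NIH3T3 replicate 2, another Mef2c probe set became the brightest tested one and was not called.

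Of genes for proteins that partner, modify or degrade SOX factors, 4 of 13 tested were lower and 2 higher in L929. Their median was -0.27, and over all genes tested 17.5% were lower and 17.1% higher. Usp9x, a deubiquitinase, measured 193 and 207 in L929 and 461 and 534 in NIH3T3, 2.43-fold lower (limma adjusted p = 7.8e-05), and its 7 tested probe sets ranged from -1.79 to -0.84. Setd7, a lysine methyltransferase that acts on Sox2, was 2.11-fold lower (229 ± 17.3 against 493 ± 62.1, adjusted p = 2.8e-04), but another Setd7 probe set stood at 0.01. Tcf7l2, a Wnt pathway factor, was 1.85-fold lower (adjusted p = 0.00832) and Crebbp, a coactivator, 1.51-fold lower (adjusted p = 0.00342). Without NIH3T3 replicate 2 neither passed, at -0.82 for Tcf7l2 and -0.50 for Crebbp. The Crebbp call was lost in 5 of 16 alternatives, also with no scaling (-0.88), median scaling (-0.53), quantile normalization (-0.57) and an offset of 32 (-0.57). Wwp2, a ubiquitin ligase of Sox2 and Sox9, measured 456 and 546 in L929 and 220 and 207 in NIH3T3, 2.29-fold higher (adjusted p = 1.4e-04), and its 5 tested probe sets ranged from 0.89 to 1.44. Pax6, a partner of Sox2 in the eye, measured 120 and 105 against 17.9 and 4.66, higher in L929 by 2.73 on the log2 scale (adjusted p = 5.0e-04). Its NIH3T3 mean lay below the filter level, so no fold is given, and the difference ran from 3.45 with an offset of 1 to 1.75 with an offset of 32. The sign of Pax6 was not settled, since its 3 tested probe sets ranged from -0.59 to 2.73, and without L929 replicate 1 another probe set was the brightest and was not called. Ctnnb1, Ep300, Fbxw7, Sdcbp, Kpnb1, Carm1 and Lef1 were not called, with log2 differences from -0.62 to 0.42.

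**Figure D3:**
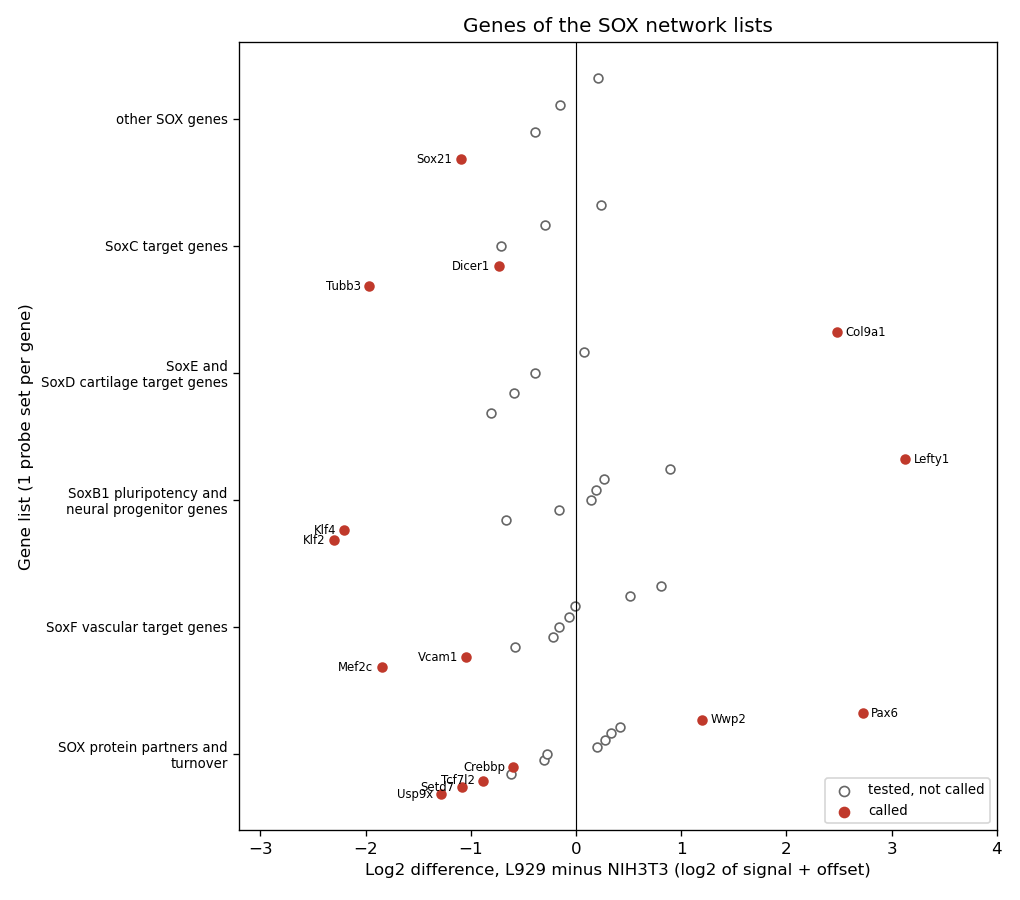
Log2 difference, L929 minus NIH3T3, of each tested gene of 6 lists around the SOX family, 1 probe set per gene, with called genes filled and named; position within a list only spreads the points. Each list holds called and uncalled genes, and the called genes run from -2.30 (Klf2) to 3.13 (Lefty1).

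Markers of cells in which SOX factors are usually studied were measured beside the family. Endothelial markers summed to 92.4 to 107 in L929 and 76.1 to 116 in NIH3T3 over 7 genes, with Pecam1 at 2.53 to 3.71. The 3 pluripotency markers summed to 7.68 to 18.2 in L929 and 12.3 to 17.1 in NIH3T3. Cartilage markers summed to 180 to 215 in L929 and 80.1 to 97.4 in NIH3T3 over 5 genes. Col9a1 led that sum in L929 and Acan in NIH3T3. Epithelial markers summed to 110 to 123 and 127 to 138, and macrophage markers to 139 to 160 and 178 to 213, over 4 genes each. The 3 neural crest and glia markers summed to 234 to 282 in L929 and 62.6 to 68.2 in NIH3T3. Among them S100b measured 234 and 215 in L929 and 15.2 and 14.2 in NIH3T3. Foxd3 measured 23.9 and 6.45 against 28.3 and 27.7 (log2 difference -0.75), and Ngfr 23.4 and 12.7 against 19.1 and 26.3 (-0.26), neither of them called. What part other cell types have in the SOX signals was not tested.

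The genes whose signals across the 4 arrays lay nearest to those of Sox4 and Sox9 were picked by the root-mean-square difference of log2 values. For Sox4 1433575_at these were Myh10, a non-muscle myosin, at 0.25, Tnc, or tenascin C, at 0.35, and Grb14, a receptor adaptor, at 0.37. For Sox9 1451538_at they were Ttc8 (0.18), Pdxdc1 (0.19) and Epb41l4a (0.23). This measure sets signals of different probe sets against each other, so it names neighbours on the signal scale only. For Sox4 it includes L929 signals below the filter level.

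**Figure D4:**
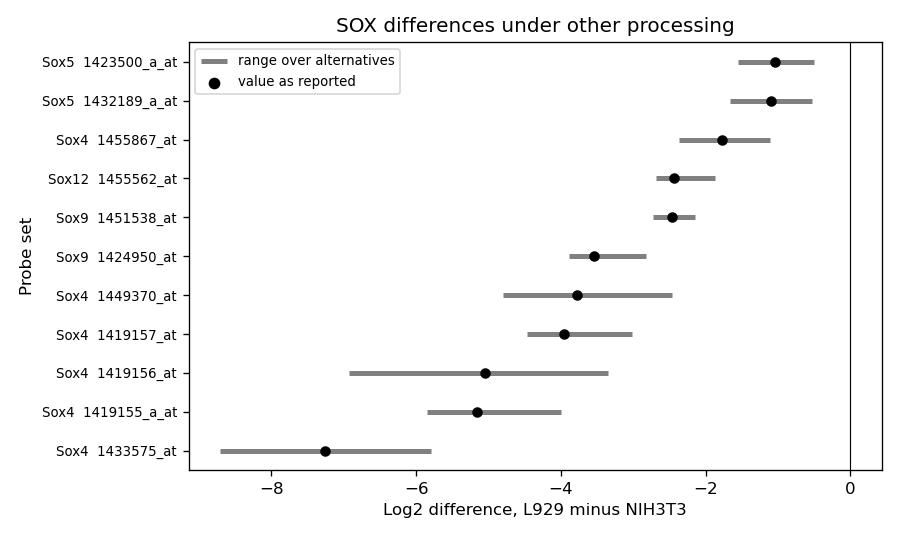
Log2 difference, L929 minus NIH3T3, of the 11 SOX probe sets lower in L929 (points) with the range over the alternative settings in which each was tested (grey bars). No bar reaches 0; the Sox4 1433575_at bar runs from -8.71 to -5.79 and those of Sox5 end at -0.50 and -0.54.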

How the data were processed

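The authors deposited linear intensities, 1 for each probe set on each array, made with MAS5 per the submitters' processing notes. Its version, its scaling target and a build: not given in the sources used here. Detection calls were not used, and arrays were grouped by their titles.

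Control probe sets (64) were left out. Each array was scaled to a common mean trimmed by 2% at each end (factors 1.07, 1.14, 1.13 and 0.726), and 8.01, the 25th percentile, was added before log2. L929 was compared with NIH3T3 with limma 3.58.1 in R 4.3.3 (mean-variance trend, 4 arrays), with Benjamini-Hochberg adjustment over 27438 probe sets. A call needs an adjusted p under 0.05 and a fold over 1.5, the thresholds of the submitters' design text. For a line with neither array over 17.3, the fold is a bound ("at least"). It sets the other line's mean log2 signal, without the added 8.01, against 17.3. Every other fold is taken from the log2 difference, which includes 8.01. Symbols came from the platform annotation; 34945 probe sets had a unique one, and 0 of the symbols changed against RefSeq.

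List genes are represented by their brightest tested probe set. Named are all SOX genes, the called genes of each list (largest first, at most 4 each way), markers, and the 3 genes nearest the SOX gene of largest difference and that of highest L929 signal. Members and lists were chosen with earlier results of these data known. Listed genes without a probe set of their own were not analysed here. The procedure was tested on simulated data. Precision is limited by having 4 arrays. Replicate numbers were not taken to pair arrays. Alternatives changed the scaling, offset, filter, trend, probe sets, replicate block and arrays.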

Additional observations from a re-analysis of the deposited data

How the results depend on the processing

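Here 16 alternatives were run. Of the 11 SOX probe sets lower in L929, 8 kept that call in every alternative in which they were tested, Sox4 1433575_at within -8.71 to -5.79. The others were Sox4 1455867_at, lost without NIH3T3 replicate 1, and the Sox5 pair, also lost with an offset of 32 and with no filter; the Sox5 pair was not tested when the filter used the 4-array mean or the 60th percentile, or left out _a_at probe sets. The cause was not tested. With 1 probe set per gene, which leaves fewer probe sets, 4 SOX probe sets were lower, and 2192 and 2238 genes were higher and lower over all. Without scaling 1484 probe sets were higher, 28.5% of calls against 47.2%, and the median of all probe sets moved to -0.28; SoxC targets then had 1 lower (Dicer1 lost) and SOX partners 1 higher (Wwp2 lost). Other SOX genes had 0 lower without a trend. SoxC targets had 1 lower with the 60th percentile filter, and SoxF genes 1 lower with that filter or an offset of 1. SoxB1-linked genes had 2 higher with median scaling, quantile normalization, no trend or 1 probe set per gene. Same-numbered arrays deviated from their line means with r = 0.014 over tested probe sets. With 1 such pair per line, this cannot decide whether same-numbered arrays shared a batch. The replicate block left 11 SOX probe sets lower and moved none of these counts by over 1.5 times. When each array was left out in turn, lower SOX probe sets numbered 8 to 10, against 11. In the same runs other SOX genes had 0 to 2 lower, SoxC targets 2 to 3 lower, cartilage genes 0 to 1 lower, and SoxB1-linked genes 1 to 2 higher. SoxF genes had 0 to 2 higher and 1 to 2 lower, and SOX partners 1 to 2 higher and 2 to 4 lower. All probe sets gave 3487 to 3818 higher and 3679 to 4391 lower. Dim signals limit Sox5, Sox17 and the genes not tested.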
